A study of Mus musculus with 14 samples.

Results

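The Myc network is a small set of basic helix-loop-helix leucine zipper transcription factors, and 10 of its genes were followed here: Myc, Mycn, Mycl, Max, Mlx, Mxd1, Mxd3, Mxd4, Mxi1 and Mnt. They were listed by gene name. All 10 were found among the 30503 genes of the count table and among the 55427 genes of the table of TPM values (transcript levels normalized for transcript length and depth). Genes absent from the count table had at most 1 count over all libraries. The cells were tdTomato+ skeletal cells of mouse femoral bone marrow, each library being made from 1 cultured clone. The 5 Fgfr3-WT clones carried Fgfr3-creER; R26R(tdTomato/+) and were isolated at postnatal day 23 (P23). The 9 Fgfr3-p53 cKO clones also carried Trp53fl/fl, and 5 of them were isolated at P28 and 4 at 4 months (P4M). All mice, including those of the Fgfr3-WT group, received tamoxifen at P21, which activates the Cre recombinase in cells that express Fgfr3 at that time. Fgfr3-WT and P28 clones were recorded here as passage 8 and P4M clones as passage 6 to 8. The methods of the study instead give passage 6 to 8 for the cKO clones of both ages, so a difference in passage between P28 and P4M clones is not established. The clone numbers below are running numbers within a group. The comparisons ask how loss of p53, and the time passed since, mark the expression of such clones. RNA was reverse transcribed with SMART-Seq v4 and sequenced as single-end reads.

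Myc, Mycn and Mycl are activators that bind DNA only after pairing with Max, and they raise the expression of genes for ribosome building, nucleotide synthesis and cell division. The Mxd proteins, Mxi1 and Mnt compete for the same partner and recruit the Sin3 and histone deacetylase repressor, so they are called Myc antagonists here. Mlx pairs with some of the antagonists and with the glucose-responsive factors Mlxip and Mlxipl. Myc is a well-known oncogene of osteosarcoma, and p53 is known to restrain its expression.

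Network dimers recognise the E-box CACGTG, a palindrome that reads the same on both strands. It was searched, together with 2 forms of the E2F motif, TTTCCCGC and TTTGGCGC, on either strand, in the RefSeq promoters of the genes (GRCm38.p6, from 250 bases before to 50 after each start). Promoters were given for 9 of the members, with 11 starts in all. Myc itself had none, so its promoter was not searched. The E-box was found in 4 of these 11 promoters (36.4%), against 2349 of all 32851 promoters (7.15%), a description over few promoters. An E2F motif was found in 1 of the 11, that of Mycn, against 1.56% of all promoters. The stretches that hold these matches are shown because they are where network members and cell-cycle factors could bind to the genes described below. A match in letters does not show binding. The matched motif is in capitals, each stretch is written on the strand of its gene, and it holds up to 30 bases on each side of the match.
Mxd4, chr5:34187894-34187959, minus strand: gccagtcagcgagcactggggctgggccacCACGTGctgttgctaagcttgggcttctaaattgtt
Mnt, chr11:74830771-74830836, plus strand: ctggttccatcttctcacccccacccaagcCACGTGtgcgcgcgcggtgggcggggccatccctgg
Mlx, chr11:101087220-101087285, plus strand: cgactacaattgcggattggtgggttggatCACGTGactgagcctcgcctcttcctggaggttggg
Max, chr12:76962246-76962281, minus strand: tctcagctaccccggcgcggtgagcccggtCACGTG
Mycn, chr12:12941967-12942049, minus strand: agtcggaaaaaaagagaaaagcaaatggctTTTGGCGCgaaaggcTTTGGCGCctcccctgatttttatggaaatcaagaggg
The E-boxes began 219 bases before the start in Mxd4, 123 in Mnt, 40 in Mlx and 3 in Max, where the motif ran across the start itself. The promoter of Mycn held 2 E2F matches, the first of which began 183 bases before the start.

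The targeted gene behaved as labelled: Trp53 lay between 49.9 and 68.2 CPM (counts scaled to a common library total) in the Fgfr3-WT clones and between 1.72 and 2.85 CPM in the 9 cKO clones. The common total was set by the trimmed mean of M values (TMM). Libraries held 25688946 to 52857424 counts. Of 7 skeletal and mesenchymal markers, all were detected in each group, but their summed level was 360.5 to 5806 CPM in Fgfr3-WT, 27080 to 44270 CPM in P28 and 16220 to 84660 CPM in P4M clones, and Col1a1 was as low as 1.45 CPM in 1 Fgfr3-WT clone. Most of the sum in cKO clones was Col1a1 and Col1a2. Pdgfrb spanned similar ranges, 233.1 to 513.8, 273.0 to 519.9 and 237.9 to 620.6 CPM in the 3 groups. Runx2 lay higher in cKO clones, at 35.3 to 94.0, 86.3 to 150.4 and 134.7 to 234.5 CPM. The 5 blood cell markers in the count table summed to 3.71 to 54.5 CPM in Fgfr3-WT and to at most 6.87 CPM in cKO clones. Most of this was Cd68, since Ptprc, which defines blood cells, stayed at or below 0.154 CPM in all clones. The 5 endothelial markers summed to 0.0809 to 0.740 CPM in Fgfr3-WT, 0.410 to 4.49 CPM in P28 and 2.75 to 12.8 CPM in P4M clones, mostly from Kdr in cKO clones, with Cdh5 at 0 in all clones. The 5 epithelial markers summed to at most 0.475, 6.39 and 3.69 CPM in the 3 groups, mostly from Cdh1 in the highest cKO clones, with Epcam at or below 0.0596 CPM. The part of these marker differences in the results below was not tested. The names of all Fgfr3-WT libraries carry the number 1303 and those of all cKO libraries 2963. The labels do not say what this library number stands for. Whatever it marks, it cannot be told apart from age and p53 genotype between Fgfr3-WT and cKO. The comparison of P4M with P28 lies within 1 library number, but there the time of isolation and any difference in passage cannot be told apart. In such bulk samples, fewer expressing cells and less RNA per cell cannot be told apart.

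Myc, the central activator, was higher in both cKO groups than in Fgfr3-WT clones and highest in P4M clones. The gene lies at chr15:61985391-61990374 on the plus strand (mm10). The levels were 24.95, 12.8, 29.6, 10.2 and 14.1 CPM in the Fgfr3-WT clones. They were 44.1, 77.4, 51.0, 74.6 and 79.6 CPM in the P28 clones. They were 119.0, 134.9, 133.7 and 151.0 CPM in the P4M clones. The 3 groups did not overlap, and the spread within a group narrowed from a coefficient of variation of 46.1% in Fgfr3-WT to 25.3% in P28 and 9.71% in P4M. Means were 18.3 ± 8.45 (SD, n = 5), 65.4 ± 16.5 (SD, n = 5) and 134.7 ± 13.1 CPM (SD, n = 4). On the log2 scale Myc rose by 1.83 (SE 0.284, edgeR quasi-likelihood, adjusted p = 0.000389) in P28 and by 2.88 (SE 0.304, adjusted p = 2.71e-05) in P4M against Fgfr3-WT, which is 3.56-fold and 7.35-fold. Myc rose in P4M against P28 by 1.04 (SE 0.291, edgeR adjusted p = 0.0463). This last call was lost in 8 of 14 fits that left out 1 clone each, with adjusted p of up to 0.108, while its direction stayed. Each of the 4 P4M clones, and P28 clones 1, 2, 3 and 4, took the call away when left out.

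**Figure D1:**
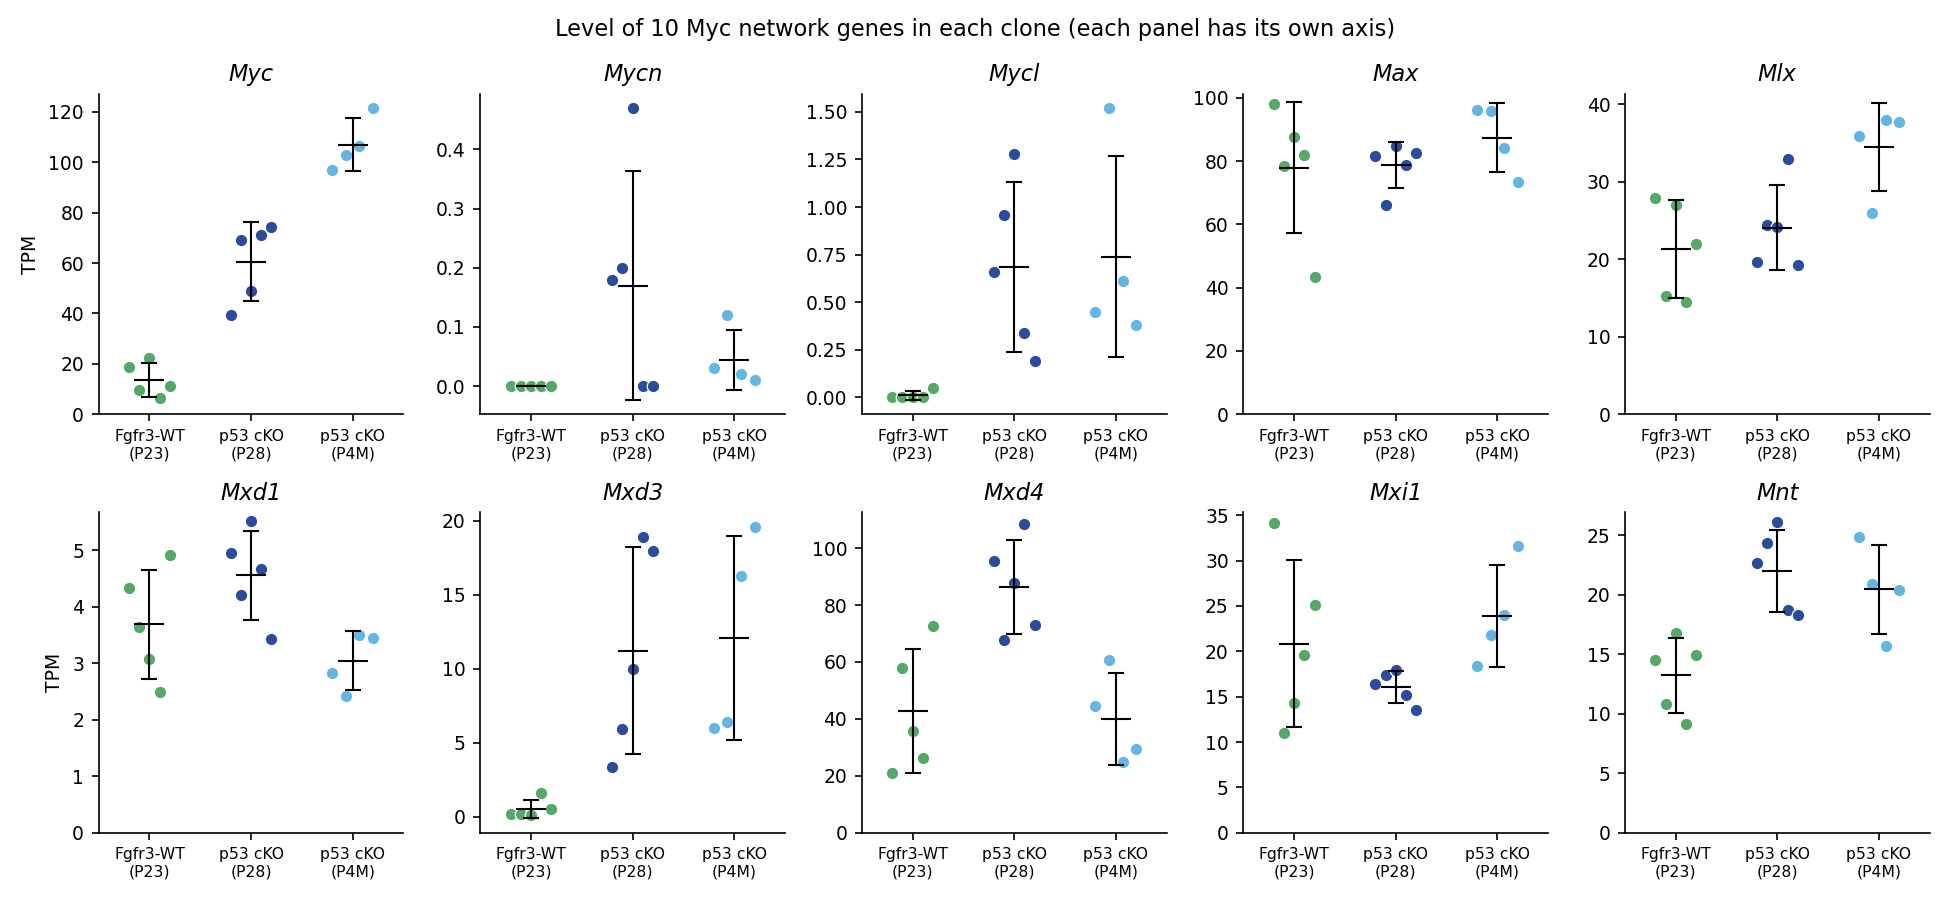
Level in TPM (vertical axis) of the 10 genes in each of 14 clones, by group, with the mean and SD as black bars. Myc separates the 3 groups, Mycl and Mxd3 separate Fgfr3-WT from cKO clones, and Max spans similar levels in all groups, with Fgfr3-WT clone 5 low at 43.3 TPM.

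Mycl, the relative of Myc first found amplified in lung tumors, was nearly silent in Fgfr3-WT clones and present at low levels in every cKO clone. The gene lies at chr4:122995652-123002485 on the plus strand. It had no count in Fgfr3-WT clones 1 to 4 and 3 counts, or 0.119 CPM, in clone 5. It reached 1.29, 1.91, 1.85, 0.343 and 0.256 CPM in P28 clones. It reached 0.992, 3.44, 1.36 and 0.827 CPM in P4M clones. All 9 cKO clones lay above all Fgfr3-WT clones, and P28 clones 4 and 5 were the lowest of the 9. Pooled over clones, Mycl was 54.1 times as abundant in P28 as in Fgfr3-WT (95% exact interval for counting error only, 18.3 to 264) and 76.0 times in P4M (25.8 to 371). The fitted log2 changes of 5.51 (SE 1.03, edgeR adjusted p = 0.00129) and 6.06 (SE 1.06, adjusted p = 0.000609) depend on the small count that edgeR adds to zeros. Ratios and fits rest on the 3 counts of Fgfr3-WT clone 5: without it the fitted changes, against a group with no count, were 8.54 and 9.09 and give no bound. P4M differed from P28 by 0.55 on the log2 scale (SE 0.762, edgeR adjusted p = 0.696), less than the spread between clones.

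Mycn, the relative of Myc known for its role in embryonic tissues and neuroblastoma, was too low to pass the filter of the main test. No read was counted in any Fgfr3-WT clone, which allows up to 0.0854 to 0.121 CPM per clone when a count of 0 is read as at most 3. The P28 clones held 13, 13, 35, 0 and 0 counts, and the P4M clones held 2, 9, 2 and 1. Mycn reads were thus spread over P28 clones 1, 2 and 3 and none were found in clones 4 and 5. Pooled over clones, P28 held 61 counts of Mycn and Fgfr3-WT 0. The lower end of the 95% exact interval for counting error only was a 10-fold higher level in P28. With a limit of 3 counts set over the whole Fgfr3-WT group, the pooled ratio was 12.7. Of the 14 counts in P4M, 9 came from clone 2, and the other 3 clones lay at 0.0188 to 0.0461 CPM, under the limits of the Fgfr3-WT clones, so no fold is given for P4M. Its highest level was 0.696 CPM, in P28 clone 3. The same 3 P28 clones also held the higher Mycl values, and P28 clones 4 and 5 the lower ones.

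Max, the obligate partner, was called in none of the 3 comparisons. Its levels were 100.5, 97.0, 106.0, 109.9 and 52.0 CPM in Fgfr3-WT clones, so clone 5 stood apart from the other 4. They were 82.5, 69.7, 77.2, 76.7 and 76.9 CPM in P28 clones and 107.6, 108.0, 98.3 and 81.3 CPM in P4M clones. The log2 differences were -0.28 (SE 0.174, edgeR adjusted p = 0.217) for P28 and 0.09 (SE 0.184, adjusted p = 0.728) for P4M against Fgfr3-WT, and 0.37 (SE 0.184, adjusted p = 0.224) for P4M against P28. The groups overlapped in each comparison. Without Fgfr3-WT clone 5, Max was called lower in P28, at -0.43 on the log2 scale (edgeR adjusted p = 0.00768), and the P4M difference turned to -0.07.

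Mxd3, an antagonist found mostly in dividing cells during S phase, rose in both cKO groups. The gene lies at chr13:55325168-55329823 on the minus strand. It was counted at 0.163, 0.153, 0.121, 1.54 and 0.435 CPM in Fgfr3-WT clones. It reached 2.32, 4.23, 6.58, 12.4 and 11.7 CPM in P28 clones. It reached 4.52, 5.03, 12.4 and 14.9 CPM in P4M clones. No cKO clone overlapped the Fgfr3-WT range, and Fgfr3-WT clone 4 was the highest of its group. The log2 changes were 3.91 (SE 0.771, edgeR adjusted p = 0.00173) in P28 and 4.22 (SE 0.796, adjusted p = 0.00103) in P4M, or 15.1-fold and 18.7-fold. Without Fgfr3-WT clone 4 they were 5.08 and 5.39. P4M and P28 differed by 0.31 (SE 0.711, edgeR adjusted p = 0.829). The gene overlaps Prelid1 on the opposite strand, and since the library kit does not mark strand, reads of the shared bases cannot be assigned to either.

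The order of the clones by Mxd3 resembled their order by genes of cell division, a description over 14 clones with no test. The summed level of 16 proliferation genes, among them Top2a, Ccnb1 and Bub1, was 178.1 to 432.5 CPM in Fgfr3-WT, 609.7 to 1899 CPM in P28 and 958.0 to 1712 CPM in P4M clones. Fgfr3-WT clone 4, the highest for Mxd3 in its group, was also the highest for these genes. P28 clone 1 was the lowest of all cKO clones in both. Myc followed this order only in part. P28 clone 1 was the lowest cKO clone for Myc too, at 44.1 CPM, but Fgfr3-WT clone 4 was the lowest of its group, at 10.2 CPM. P4M clone 1 held 119.0 CPM of Myc at 958.0 CPM of the summed proliferation genes. P28 clone 5, the highest P28 clone for both, held 79.6 CPM of Myc at 1899 CPM.

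Mxd4, the most abundant antagonist by mean TPM in each group and a factor of resting and differentiating cells, varied widely. It lay at 52.4, 152.1, 93.8, 81.6 and 179.8 CPM in Fgfr3-WT clones. It lay at 201.0, 147.6, 180.6, 225.1 and 150.4 CPM in P28 clones. It lay at 108.2, 152.4, 60.0 and 68.4 CPM in P4M clones. The ranges of all 3 groups overlapped, and 3 of the 4 P4M clones lay below every P28 clone. Log2 differences were 0.69 (SE 0.328, edgeR adjusted p = 0.111) in P28 against Fgfr3-WT, -0.20 (SE 0.347, adjusted p = 0.661) in P4M against Fgfr3-WT and -0.90 (SE 0.353, adjusted p = 0.13) in P4M against P28. P28 was called higher than Fgfr3-WT when Fgfr3-WT clone 5 was left out, at 0.93 (edgeR adjusted p = 0.0388).

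Mxi1, an antagonist that is also induced by low oxygen, fell in P28 clones. Fgfr3-WT clones held 46.5, 18.4, 23.3, 36.1 and 40.4 CPM, P28 clones 21.6, 23.8, 23.7, 19.5 and 17.5 CPM, and P4M clones 27.9, 34.5, 37.4 and 46.4 CPM. The Fgfr3-WT range covered all other clones except P28 clone 5, and all 4 P4M clones lay above all 5 P28 clones. In P28 against Fgfr3-WT Mxi1 fell by 0.63 on the log2 scale (SE 0.234, edgeR adjusted p = 0.0456), a call that was lost in 8 of 14 fits without 1 clone. The difference of P4M from P28 was 0.78 (SE 0.246, edgeR adjusted p = 0.0672), and that of P4M from Fgfr3-WT was 0.15 (SE 0.246, adjusted p = 0.648). Within P4M clones, Mxi1 was highest where Mxd3 was highest, in clone 4. Mxi1 overlaps Gm10197 and a noncoding transcript on the opposite strand, and Mxd4 an antisense gene, Gm42846.

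Mnt, the broadly expressed antagonist, rose in P4M clones. It lay at 44.6, 35.2, 52.4, 33.9 and 46.9 CPM in Fgfr3-WT, at 59.7, 68.0, 67.2, 48.4 and 46.9 CPM in P28 and at 75.4, 65.9, 47.7 and 60.3 CPM in P4M clones. In both cKO groups 3 clones lay above all Fgfr3-WT clones and the others within their range. The log2 change in P4M was 0.55 (SE 0.178, edgeR adjusted p = 0.0226). It lost its call without Fgfr3-WT clone 2 or 4 or P4M clone 1 or 2, with adjusted p of up to 0.0723. In P28 the difference was 0.45 (SE 0.169, edgeR adjusted p = 0.051), just outside the threshold.

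Mlx, the partner that links the antagonists to Mlxip and Mlxipl, rose in P4M clones as well. It lay at 28.2, 15.8, 24.6, 18.7 and 19.3 CPM in Fgfr3-WT, at 17.8, 22.3, 20.2, 26.1 and 15.5 CPM in P28 and at 34.0, 26.8, 34.6 and 28.9 CPM in P4M clones. All P4M clones lay above all P28 clones, and only P4M clone 2 lay within the Fgfr3-WT range. The log2 change in P4M against Fgfr3-WT was 0.54 (SE 0.192, edgeR adjusted p = 0.0329), a call lost without Fgfr3-WT clone 2, 4 or 5 or P4M clone 1 or 3. P4M differed from P28 by 0.61 (SE 0.192, edgeR adjusted p = 0.0676) and P28 from Fgfr3-WT by -0.07 (SE 0.182, adjusted p = 0.804). Mlx overlaps Psmc3ip, a recombination gene, on the opposite strand.

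Mxd1, the antagonist linked to terminal differentiation of blood and skin cells, was low and was not called in any comparison. Its ranges were 7.85 to 15.7 CPM in Fgfr3-WT, 9.04 to 14.7 CPM in P28 and 7.71 to 10.8 CPM in P4M clones, and they overlapped. The log2 differences were 0.09 (SE 0.203, edgeR adjusted p = 0.769) for P28, -0.32 (SE 0.217, adjusted p = 0.24) for P4M, both against Fgfr3-WT, and -0.41 (SE 0.217, adjusted p = 0.253) for P4M against P28.

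Counted over the members, 9 of 10 passed the filter on low counts. In P28 against Fgfr3-WT 3 were called higher (Myc, Mycl, Mxd3) and 1 lower (Mxi1), where 19.2% of all 17358 genes tested were called higher and 19.7% lower. Against the same Fgfr3-WT clones, P4M clones had 5 members called higher (Myc, Mycl, Mxd3, Mnt, Mlx) and 0 lower, where 22.3% of all genes were called higher and 23.6% lower. Between the cKO groups only Myc was called, as higher in P4M, where 3.34% of all genes were called higher and 3.88% lower. The count of 5 in P4M against Fgfr3-WT fell to 3 without Fgfr3-WT clone 2 or 4, or P4M clone 1. The median log2 difference of the 9 tested members was 0.45, 0.54 and 0.37 in the 3 comparisons, beside -0.02, -0.06 and -0.01 over all genes tested. With 9 genes, these counts and medians describe the members and were not tested. The 3 comparisons share groups of clones, so their counts are not independent.

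**Figure D2:**
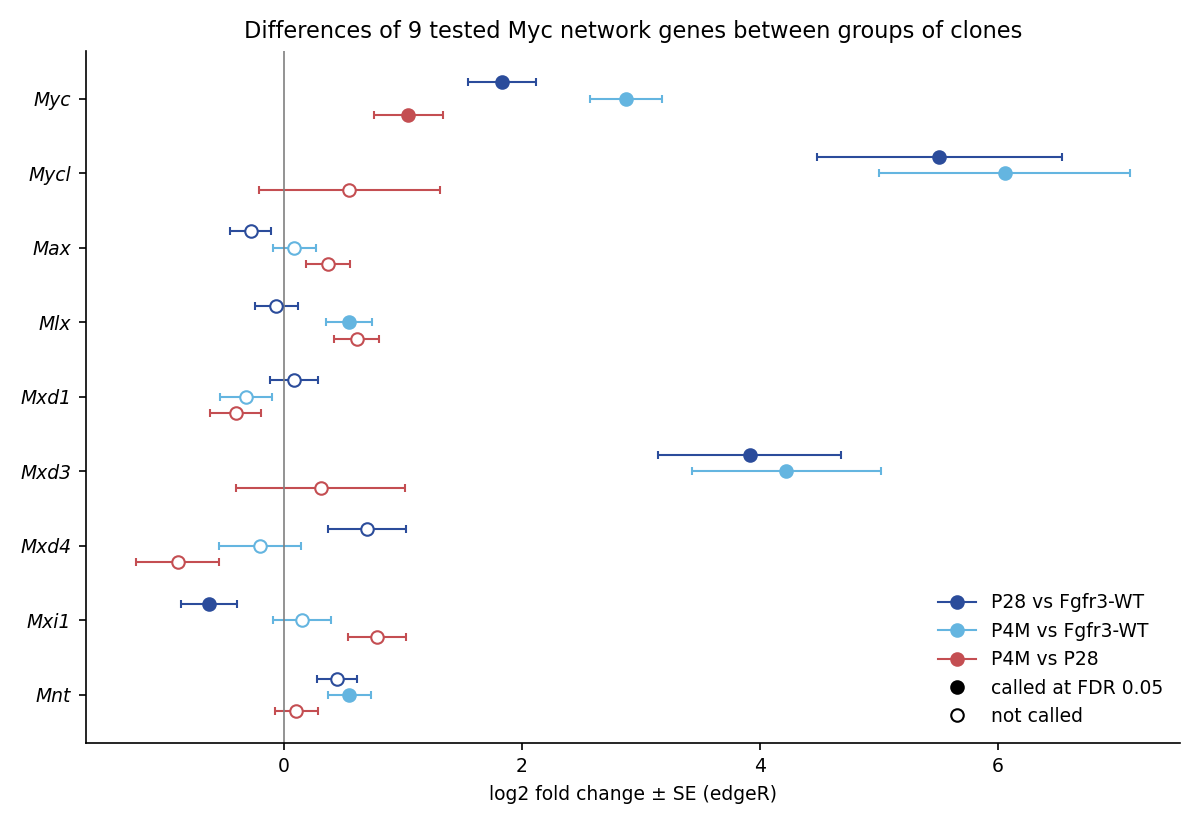
Log2 fold change with SE (horizontal axis, edgeR) of the 9 tested members in each comparison, where colours mark the pair of groups. Filled points are called at an FDR of 0.05. Mycl (5.51 and 6.06), Mxd3 (3.91 and 4.22) and Myc (1.83 and 2.88) lie far to the right in both comparisons with Fgfr3-WT, and Myc (1.04) is the filled point between the cKO groups.

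Levels of different genes were compared in TPM, which accounts for transcript length. In Fgfr3-WT clones the order was Max (77.9 ± 20.7 TPM, SD, n = 5), Mxd4 (42.7 ± 21.8), Mlx (21.3 ± 6.32), Mxi1 (20.8 ± 9.20), Myc (13.7 ± 6.66) and Mnt (13.2 ± 3.15), and the ranges of each neighbouring pair in this order overlapped. Mxd1 (3.69 ± 0.963), Mxd3 (0.55 ± 0.631) and Mycl (0.01 ± 0.0224) followed with separate ranges, and Mycn was listed at 0. In P28 clones Mxd4 (86.4 ± 16.6), Max (78.8 ± 7.31) and Myc (60.6 ± 15.5) led, with ranges that overlapped from neighbour to neighbour, and all 3 lay above Mlx (24.1 ± 5.51). In P4M clones Myc was first at 106.9 ± 10.5 TPM (SD, n = 4), and its lowest clone, at 97.0 TPM, lay just above the highest clone for Max, at 96.3 TPM. Max followed at 87.5 ± 10.8 TPM and Mxd4 at 39.9 ± 16.1 TPM.

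The balance of activators and antagonists was described by the summed TPM of Myc, Mycn and Mycl over that of Mxd1, Mxd3, Mxd4, Mxi1 and Mnt, a ratio within each clone. It was 0.252, 0.113, 0.320, 0.111 and 0.0954 in Fgfr3-WT clones. It was 0.281, 0.589, 0.344, 0.431 and 0.590 in P28 clones. It was 1.01, 0.931, 1.26 and 1.17 in P4M clones. The P4M clones were separate from all others, while P28 clone 1 lay below Fgfr3-WT clone 3. The antagonist sum was 81.0 ± 22.4 TPM (SD, n = 5) in Fgfr3-WT, 140.4 ± 18.3 TPM (SD, n = 5) in P28 and 99.4 ± 11.8 TPM (SD, n = 4) in P4M clones, and Myc made up nearly all of the activator sum in every clone. The ratio of Max to Myc in TPM was 3.87 to 12.4 in Fgfr3-WT clones, 0.957 to 2.08 in P28 clones and 0.605 to 0.993 in P4M clones.

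The makeup of the antagonists differed from clone to clone. Mxd4 held 28.4% to 69.3% of their summed TPM in Fgfr3-WT, 56.6% to 66.8% in P28 and 28.1% to 54.0% in P4M clones. Mxd3 held 0.214% to 2.77% in Fgfr3-WT, 2.37% to 14.3% in P28 and 5.74% to 19.3% in P4M clones. P4M clones 1 and 2 held 6.21% and 5.74% of Mxd3, and clones 3 and 4 held 19.3% and 18.8%. Those same clones 3 and 4 held the smaller shares of Mxd4, 29.6% and 28.1%, and the larger shares of Mxi1, 28.4% and 30.3%. Each share is a part of the same total, so a larger share of 1 antagonist leaves less for the rest.

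**Figure D3:**
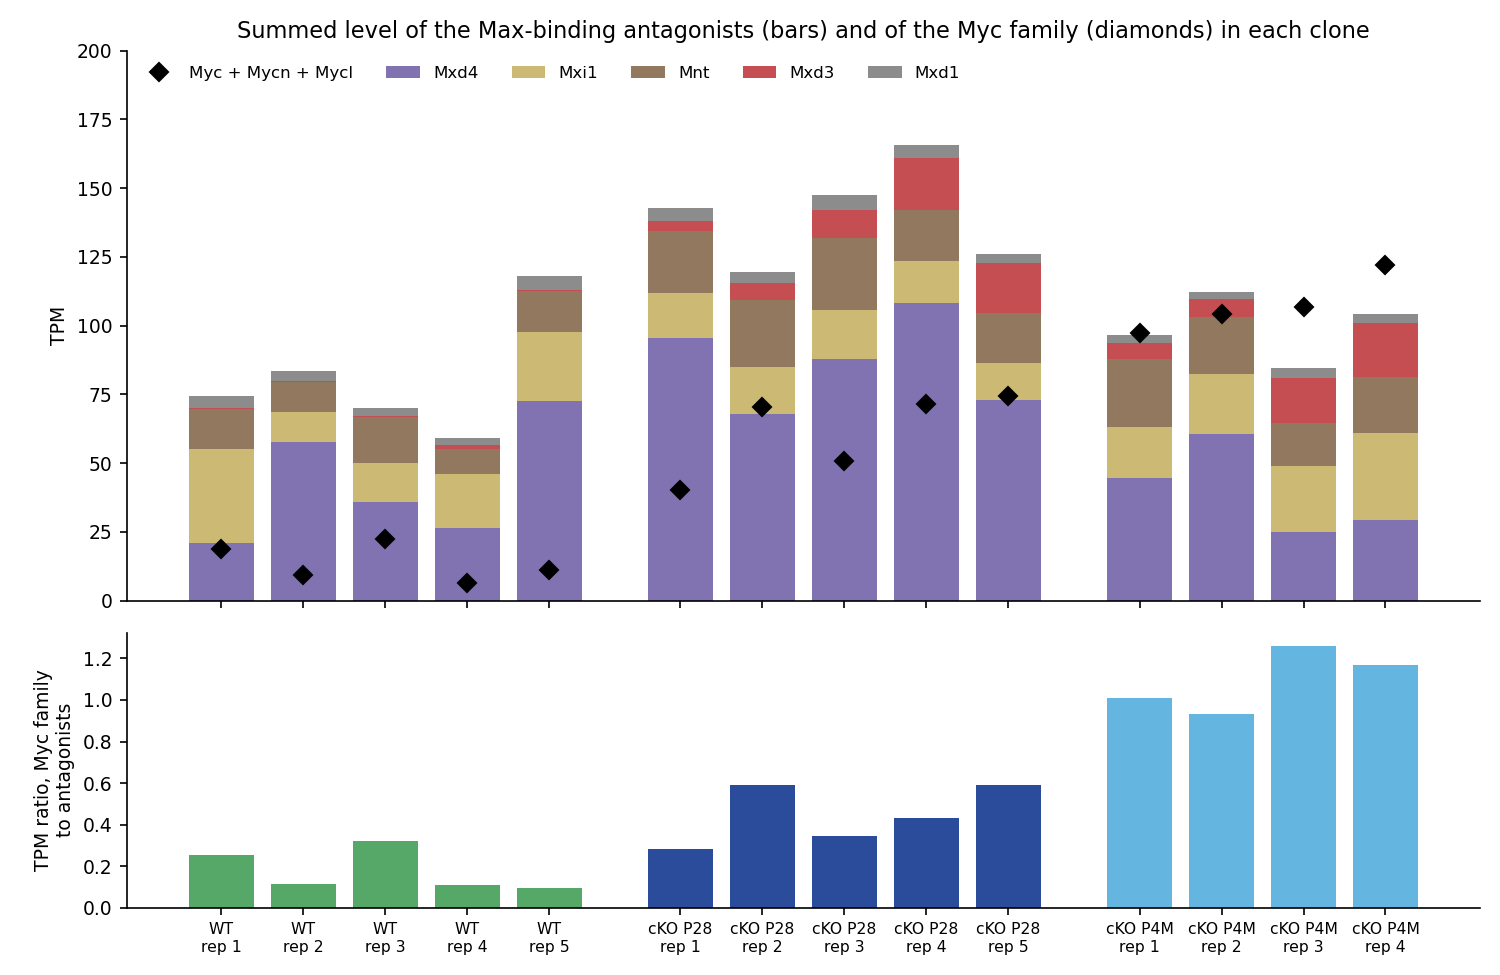
Upper panel, summed TPM of 5 antagonists (stacked bars) and of Myc, Mycn and Mycl (diamonds) in each clone. Lower panel, their ratio. The diamonds lie within the bars in Fgfr3-WT and P28 clones and near or above their tops in P4M clones, where the ratio is 0.931 to 1.26.

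Whether the Myc levels moved with neighbouring genes was described with Pvt1, the noncoding gene next to Myc that is often amplified together with it, and with the median of all well-expressed genes of chromosome 15. Pvt1 lay at 8.05 to 27.6 CPM in Fgfr3-WT, 8.98 to 12.5 CPM in P28 and 18.5 to 22.3 CPM in P4M clones. Its log2 difference was -0.73 (SE 0.286, edgeR adjusted p = 0.0566) in P28 and 0.19 (SE 0.301, adjusted p = 0.64) in P4M against Fgfr3-WT, and 0.92 (SE 0.301, adjusted p = 0.0756) in P4M against P28. Relative to the mean of the Fgfr3-WT clones, log2 CPM of Myc stood 1.38 to 2.24 higher in P28 and 2.82 to 3.16 higher in P4M clones. For chromosomes, the median difference of all well-expressed autosomal genes of a clone was also subtracted, which was not done for Myc. The median of chromosome 15 genes then stood 0.136 to 0.514 and 0.085 to 0.397 higher, and each Fgfr3-WT clone against the other 4 spanned -0.507 to 0.226. For chromosome 4, which holds Mycl, the shifts were 0.278 to 0.56 in P28 and 0.451 to 0.58 in P4M clones, with -0.414 to 0.381 among Fgfr3-WT clones. For chromosome 13, which holds Mxd3, they were 0.0882 to 0.265 and 0.0116 to 0.178, with -0.299 to 0.534 among Fgfr3-WT clones. Copy number was not measured in these libraries.

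**Figure D4:**
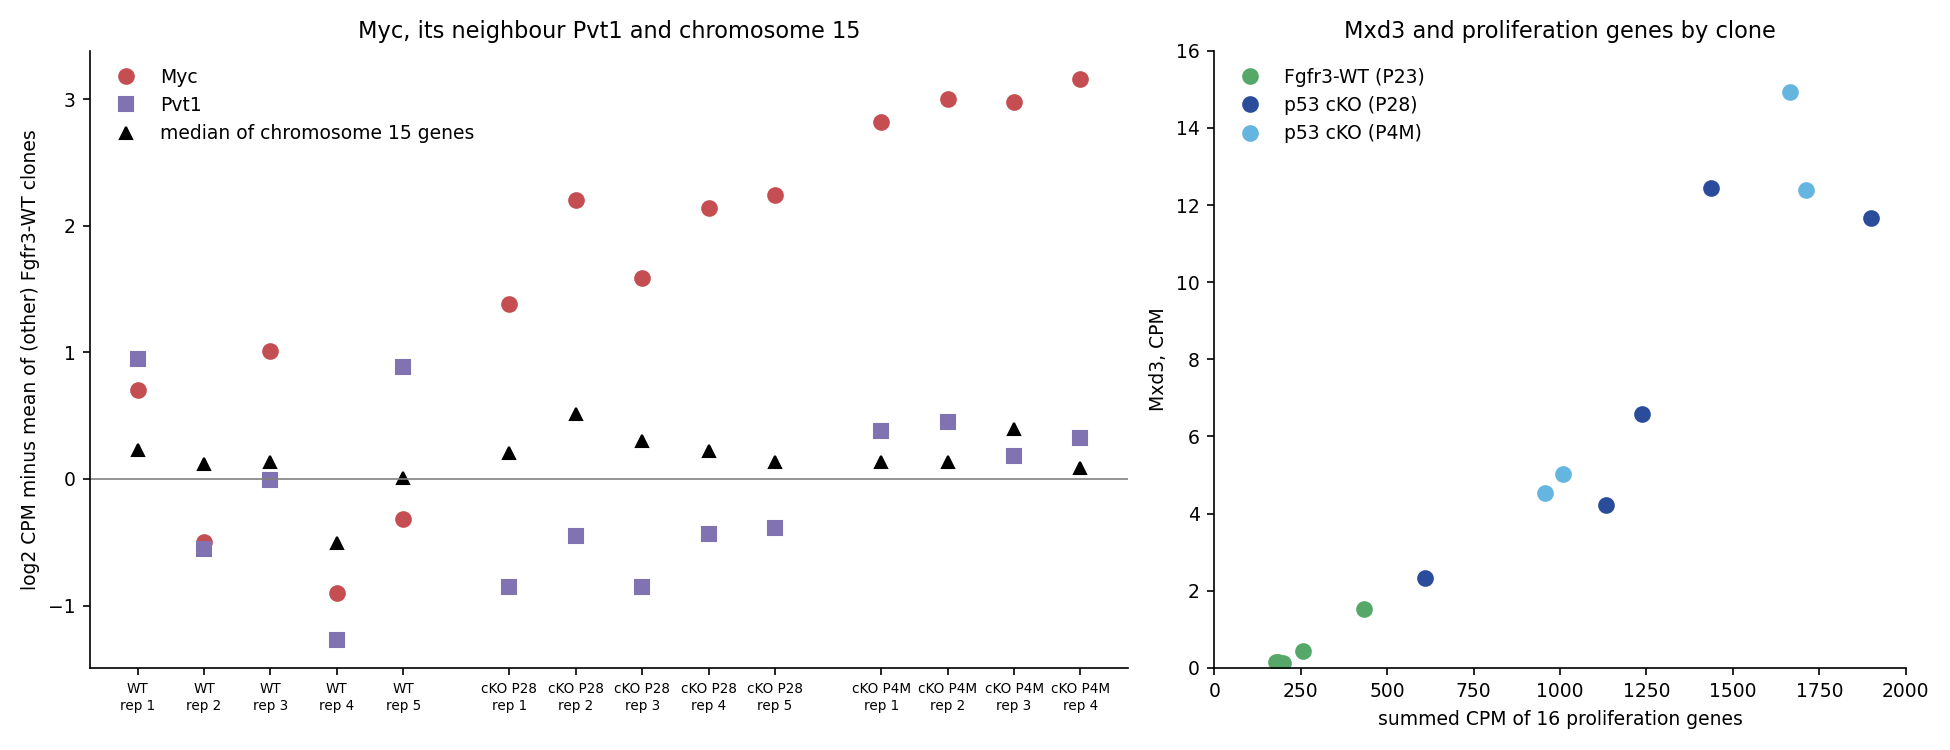
Left, log2 CPM of Myc and Pvt1 and the median of chromosome 15 genes in each clone, given as the difference from the Fgfr3-WT mean (for a Fgfr3-WT clone, from that of the other 4). From the chromosome value alone, the median difference of all well-expressed autosomal genes of the clone was also subtracted. Myc reaches 2.82 to 3.16 in P4M clones while the chromosome median stays below 0.6. Right, Mxd3 against the summed level of 16 proliferation genes, both in CPM, with 1 point per clone.

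Genes outside the members were then grouped by their known tie to the network. These lists were chosen with earlier results of these data known, so their shares beside those of all genes are descriptions and were not tested. Among 38 genes that Myc is known to activate, 20 rose and 3 fell in P28 (52.6% and 7.89%) and 23 rose and 1 fell in P4M (60.5% and 2.63%) relative to Fgfr3-WT. Of all genes tested, 19.2% were called higher and 19.7% lower in P28 relative to Fgfr3-WT, and 22.3% and 23.6% in P4M. From P28 to P4M, 6 of the 38 rose (15.8%) and 0 fell, beside 3.34% and 3.88% of all genes. The median log2 differences of the 38 genes were 0.49, 0.85 and 0.43. Srm, which makes spermidine, rose by 1.51 in P28 and 2.11 in P4M on the log2 scale. Mrto4, a ribosome assembly factor, rose by 1.52 and 2.03. Wdr43, a factor of ribosomal RNA processing, rose by 1.09 and 1.79 against Fgfr3-WT and by 0.70 in P4M against P28 (SE 0.171, edgeR adjusted p = 0.0283). Ccnd2, a D-type cyclin, went the other way and fell by 0.69 in P28 and by 1.11 in P4M. The 6 calls in P4M against P28 dropped to 0 or 1 without P28 clone 1 or 3 or P4M clone 1, 2 or 4, to 3 without P4M clone 3, to 1 with no scaling beyond library size and to 0 with limma on log2(TPM + 1). They numbered 9 with DESeq2 or without Fgfr3-WT clone 1, and 10 when only the groups compared were fitted.

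Among 13 genes that Myc is known to repress, 2 rose and 2 fell in each comparison with Fgfr3-WT (15.4% each way), beside 19.2% and 19.7% of all genes in P28 and 22.3% and 23.6% in P4M, and 1 rose and 1 fell in P4M against P28. The count of higher calls was 0 or 1 in 14 of 21 alternatives for P28 and 1 in 8 of 21 for P4M. Cdkn1b, the cell-cycle inhibitor p27, fell by 1.64 on the log2 scale in P4M against Fgfr3-WT (SE 0.31, edgeR adjusted p = 0.00104). Thbs1, a secreted inhibitor of vessel growth, fell by 4.07 (SE 1.02, edgeR adjusted p = 0.00586) in P4M against Fgfr3-WT and by 4.11 against P28 (SE 1.02, adjusted p = 0.0305). The list held no lower call between P4M and P28 without P28 clone 1, 3 or 4, without any single P4M clone, or with no filter on low counts. Ndrg2, a stress-response gene, rose by 3.70 in P28 and 4.68 in P4M against Fgfr3-WT, and Ndrg1, of the same family, rose by 1.51 in P4M (SE 0.546, edgeR adjusted p = 0.0369). Some of the listed genes, such as Cdkn1a, are also known targets of p53, which was deleted in the same clones.

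Of 10 genes that set the stability of the Myc protein, 5 rose in P28 and 6 in P4M against Fgfr3-WT, and none fell, beside 19.2% and 22.3% of all genes called higher. Skp2, a ubiquitin ligase subunit that also acts in the cell cycle, rose by 2.04 and 1.33 on the log2 scale. Aurka, a mitotic kinase that shields N-Myc from degradation, rose by 3.62 and 3.61. Usp36, a nucleolar deubiquitinase of Myc, rose by 1.16 in P4M (SE 0.265, edgeR adjusted p = 0.00337). Of 15 cofactors of Myc and the antagonists, 7 rose (46.7%) and 0 fell against Fgfr3-WT in both P28 and P4M, beside the same shares of all genes, among them Hdac1 (1.20 and 0.92), Wdr5 (0.60 and 0.98) and Zbtb17 (0.71 and 0.69), a partner through which Myc represses some genes. With all 14 clones fitted, none of these 25 genes was called by edgeR in P4M against P28. Fitting only these groups called 2 of the stability genes higher and 2 cofactors lower, leaving out Fgfr3-WT clone 1 called 1 stability gene higher, DESeq2 called 1 stability gene lower, and limma on log2(TPM + 1) called 2 of each list lower.

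Outside the members, Max and Mlx have further partners. Mga, a Max-binding repressor, rose in P28 by 0.63 on the log2 scale (SE 0.192, edgeR adjusted p = 0.0195), with 37.7 to 76.2 CPM in Fgfr3-WT and 74.2 to 91.8 CPM in P28 clones. Mlxip rose in P28 by 0.55 (SE 0.12, edgeR adjusted p = 0.00317). In P4M the differences from Fgfr3-WT were 0.21 (SE 0.202, edgeR adjusted p = 0.41) for Mga and 0.31 (SE 0.126, adjusted p = 0.0615) for Mlxip. Mlxipl, mainly a liver and fat factor, had at most 12 counts in a clone and did not pass the filter of the main test.

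The proliferation genes rose in 16 of 16 cases in both P28 and P4M against Fgfr3-WT, with median log2 changes of 3.41 and 3.03. Beside this, 19.2% of all genes tested were called higher in P28 and 22.3% in P4M. None of the 16 was called by edgeR in P4M against P28, where the median was 0.04. Bub1 rose by 4.23 and 4.64, Ccnb1 by 4.60 and 4.52 and Top2a by 3.83 and 4.18 on the log2 scale.

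**Figure D5:**
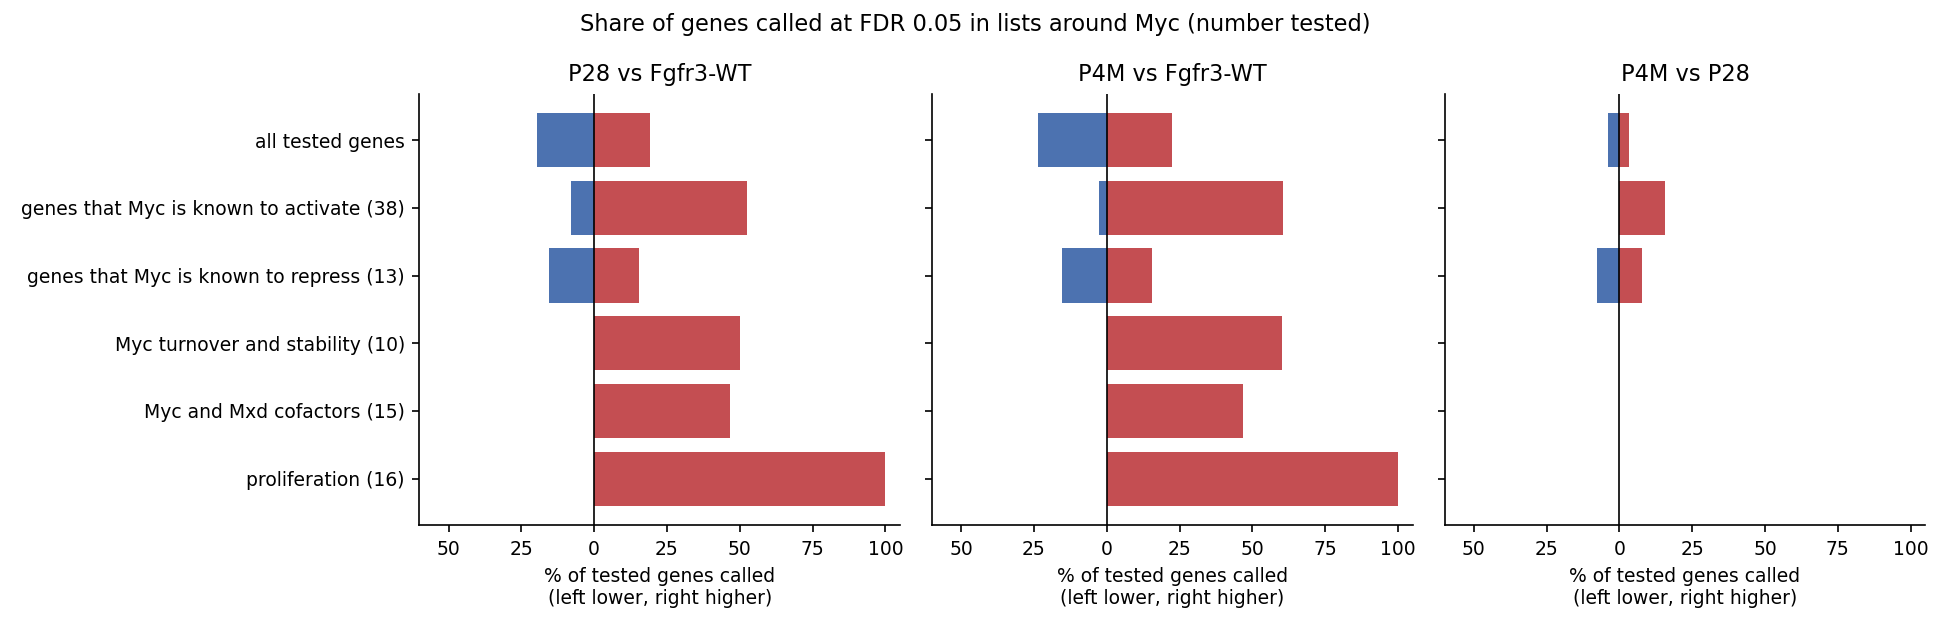
Percent of the tested genes of each list that were called lower (left of 0) or higher (right) at an FDR of 0.05 in each comparison, with all 17358 tested genes on top. The activated list shows 52.6% (P28) and 60.5% (P4M) called higher than in Fgfr3-WT, and 15.8% called higher in P4M than in P28.

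The genes whose pattern over the 14 clones was most like that of Myc, by Pearson's r of log2 CPM, were Nol11 (0.983), Riok1 (0.978), Gtpbp4 (0.976), Ipo5 (0.975) and Gm9936 (0.973). After the group means were taken out, r was 0.885, 0.849, 0.918, 0.757 and 0.702. Nol11, Riok1 and Gtpbp4 take part in building ribosomes, and Ipo5 imports proteins into the nucleus. For Mycl the closest were Hoxb9 (0.969), Irs2 (0.960), Ackr4 (0.956), Hoxb4 (0.954) and Tril (0.953), with r of 0.827, 0.750, 0.715, 0.898 and 0.847 within groups. These values describe 14 points in 3 groups, which share any differences that go with the library number, and carry no test. Between members, Myc and Mycl had an r of 0.802 over all clones and -0.303 within groups, and Myc and Mxd3 had 0.790 and -0.220.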

How the data were processed

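The 14 libraries were bulk RNA-seq of cultured clones. Per the labels and the methods of the study, the authors mapped single-end reads with TopHat and Bowtie2 on the mm10 genome, and HTSeq counted those that mapped to 1 gene without ambiguity. The deposited count table, named as raw counts, gives whole numbers per gene for 30503 genes, with no scaling. These equal the deposited expected counts of the same 30503 genes in every clone, once those are rounded to whole numbers. The table of expected counts was used only for this check. The program that made the expected counts is not given in the sources used here. It is thus not settled whether the counts tested here are those of HTSeq. The TPM values were deposited by the authors, who normalized them for transcript length and depth, and the program that made them is not given in the sources used here. Deposited tables of depth-normalized counts, regularized log values and FPKM were not used. The count table also held 4 transgene features, of the reporters and the Cre, which stayed in the totals.

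Differences between groups were tested with edgeR 4.0.16 under R 4.3.3. Low genes were removed by filterByExpr, libraries were scaled by TMM, and a robust quasi-likelihood model was fitted to all 14 clones and 17358 genes. Two-sided P values received the Benjamini-Hochberg adjustment over all genes tested, with calls at an FDR of 0.05. CPM were computed on the TMM-scaled totals. Nothing in the labels ties clones to separate mice, so p values measure the spread between clones. Intervals of count ratios were exact at 95% and cover counting error only, as does the limit of 3 counts set for a count of 0. The chromosome medians used 9315 genes with a mean log2 CPM above 3. The steps were tested on simulated data. DESeq2 1.42.0, limma 3.58.1 on log2(TPM + 1), other scalings and filters, only the groups compared, and fits without 1 clone served as alternatives. Python 3.11.15, pandas 2.3.3 and matplotlib 3.10.9 were used for the rest.

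The genes named are the members, Trp53, Pvt1, the partner genes, up to 3 called genes with the largest rise and 3 with the largest fall in P4M against Fgfr3-WT from each list, and the 5 genes most like Myc and Mycl. Members and lists were chosen with earlier results of these data known. Protein sequences were not used here.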

Additional observations from a re-analysis of the deposited data

Results flagged for a closer look

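Among 29 groups of member values, 4 held a clone far from the rest of its group. The groups were flagged on CPM, also for genes with few counts, so no chance rate is given for them. Fgfr3-WT clone 5 stood out with 51.96 CPM of Max, below the 97.0 to 109.9 CPM of the other 4, and with 0.1187 CPM of Mycl. This is 3 counts, the level up to which a count of 0 is read, and beside 4 clones at 0 any count stands apart by construction. Fgfr3-WT clone 4 held 1.536 CPM of Mxd3, and the next highest clone 0.435 CPM. P4M clone 2 held 0.2048 CPM of Mycn, which is 9 counts, and the next highest clone 0.0461 CPM. Myc differed between the cKO groups, with a log2 difference of 1.0431 between P4M and P28 (SE 0.291, edgeR adjusted p = 0.0463), a call that leaving out single clones can remove. No Fgfr3-WT clones were isolated at 4 months, and passage may differ, so time of isolation, age and passage cannot be told apart.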

How the results depend on the processing

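Myc, Mycl and Mxd3 kept their calls against Fgfr3-WT under each alternative that could test them, and with at least 10 counts in every clone Mycl and Mxd3 were not tested. In that setting 3 members were called in P4M against Fgfr3-WT, and 3 to 5 when single clones were left out. Between P4M and P28, 0 members were called with no scaling beyond library size (Myc adjusted p = 0.0731), 4 with only the groups compared (Myc, Max, Mxi1, Mlx), 3 with DESeq2 (Myc, Mxi1, Mlx) and 0 to 3 without single clones. Limma on log2(TPM + 1) called 1 there, Mxd4 as lower (adjusted p = 0.0496), and not Myc. Genes called between P4M and P28 numbered 1254, but 3051 with only the groups compared, 2607 with DESeq2 and 480 to 2132 without single clones. The lowest of these left out P4M clone 1 and the highest Fgfr3-WT clone 1. The cause was not tested.

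Some differences that were not called changed direction. P28 against Fgfr3-WT gave 0.061 for Max and 0.19 for Mlx with limma on log2(TPM + 1), and 0.0184 for Mlx with no scaling. Limma on log2(TPM + 1) gave -0.11 for Mnt between P4M and P28, and an adjusted p of 0.088 for Myc there. Without single clones, ranges in P28 against Fgfr3-WT were -0.0304 to 0.22 for Mxd1 and -0.19 to 0.0301 for Mlx. Those of P4M against Fgfr3-WT were -0.0663 to 0.18 for Max, -0.50 to 0.0318 for Mxd4 and -0.0045 to 0.30 for Mxi1. Between P4M and P28 they were -0.0879 to 0.85 for Mycl and -0.022 to 0.59 for Mxd3. The call of Mxi1 in P28 against Fgfr3-WT was lost in 12 of 21 alternatives, and Mnt was called there in 9. The adjusted p of Mxi1 ranged from 0.0103 to 0.436, and that of Mnt from 0.00633 to 0.128.

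On TPM the median gene stood 0.20 higher in P28 than in Fgfr3-WT, and 72.6% of calls were higher, beside 49.4% in edgeR. Between P4M and P28 the share of calls that were higher was 46.3%, beside 33.2% with no scaling and 23.9% on TPM. Counts of called genes in the lists under these alternatives were added after the data were seen. The repressed list had a median between -0.29 and 0.56 in P28 against Fgfr3-WT. No paired analysis was possible because the replicate numbers are running numbers that tie no clones together across groups. Depth limits Mycn, which at 0 to 35 counts per clone did not pass the main filter. With no filter it was fitted, and 5 members were called in P28 against Fgfr3-WT: Myc, Mycl, Mxd3, Mnt and Mycn. Mycn had no count in any Fgfr3-WT clone, so that call rests on a group at 0.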
